A study of Mus musculus with 8 samples.

Results

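The change that re-feeding brings about in the liver transcriptome of mice lacking Med23 in the liver was described here across 10499 genes of the 23699 listed, all those with at least 1 FPKM in at least 2 of the 4 knockout libraries. FPKM is the number of sequenced fragments of a transcript divided by its length and by the mapped fragments of the library, so that it is a level per length. Livers came from male mice of the strain C57/BL6 aged 8 weeks. Liver-specific Med23 knockout mice, LMKO in the labels, had been starved for 24 h (2 libraries, "LMKO fasted") or starved for 24 h and given food again for 24 h (2 libraries, "LMKO re-fed"). Control mice of the same strain, sex and age went through the same 2 states, with 2 libraries each. Polyadenylated RNA was sequenced. Each group holds 2 mice, and the error of a value is therefore that between animals. The promoter that drove the recombinase, the floxed allele and the genotype of the controls beyond "control" are not given in the sources used here, and none of the labels mentions pooling of animals.

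Mediator is a multisubunit complex that carries signals from DNA-bound transcription factors to RNA polymerase II, and MED23 is one of its tail subunits. In the fasted liver, glucagon, glucocorticoids and fatty acids acting through PPAR alpha maintain glucose production, fatty acid oxidation and ketone body synthesis, and FOXO1 remains in the nucleus because insulin is low. On re-feeding, insulin and glucose switch the organ to glycolysis, fatty acid and cholesterol synthesis, with SREBP and ChREBP transcription factors driving the lipid genes, and protein synthesis and secretion resume. The livers of the knockout mice were compared here between these 2 states.

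Med23 itself, an mm9 locus at chr10:24589792-24633335, was present at a low level in all 8 libraries. It stood at 2.35 and 2.18 FPKM in the LMKO fasted libraries and at 1.61 and 1.74 FPKM in the LMKO re-fed libraries, against 2.86 and 2.93 FPKM in the control fasted and 2.86 and 2.33 FPKM in the control re-fed libraries. Each LMKO value lay below both control values of the same state, and transcript remained in all 4. Within the LMKO mice the log2 fold change from fasted to re-fed was -0.29 ± 0.12 (standard error, SE) and did not pass the test (adjusted p = 0.0884). A value per gene does not show which exons were read, so the files do not tell the remaining transcript of hepatocytes with the deletion from that of cells without it.

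Summed FPKM over all loci was 465853 and 468218 in the LMKO fasted libraries and 597650 and 580797 in the LMKO re-fed libraries, while the number of loci at 1 FPKM or more lay between 10096 and 10403 in all 8. Depth relative to the first LMKO fasted library, read from the steps between low values, was 0.886 to 1.03. Longer transcripts were lower and shorter transcripts higher after re-feeding, where the length of a gene is that of its longest annotated transcript. In the 2600 genes with the shortest transcripts (median length 1460.5 bases) the median log2 fold change was 0.49, and in the 2598 genes with the longest (6156.5 bases) it was -0.33. In the control mice these medians were 0.44 and -0.14. Both the sum and the length trend therefore moved with the feeding state, the trend unevenly between animals. Each library's deviations from the gene means were correlated with log2 length. In LMKO mice r was 0.224 and 0.332 fasted and -0.408 and -0.37 re-fed. In the controls r was 0.308 and 0.27 fasted and -0.029 and -0.331 re-fed. For many lists, though not all, counts are given below also with the length trend removed. The fasted libraries share a number in their deposited names and the re-fed libraries share another, so feeding state and whatever that number records cannot be told apart. Albumin, the main protein that liver secretes, is listed at 0 in all 8 libraries, so an exact 0 can be a failed estimate and is called "listed at 0".

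**Figure D1:**
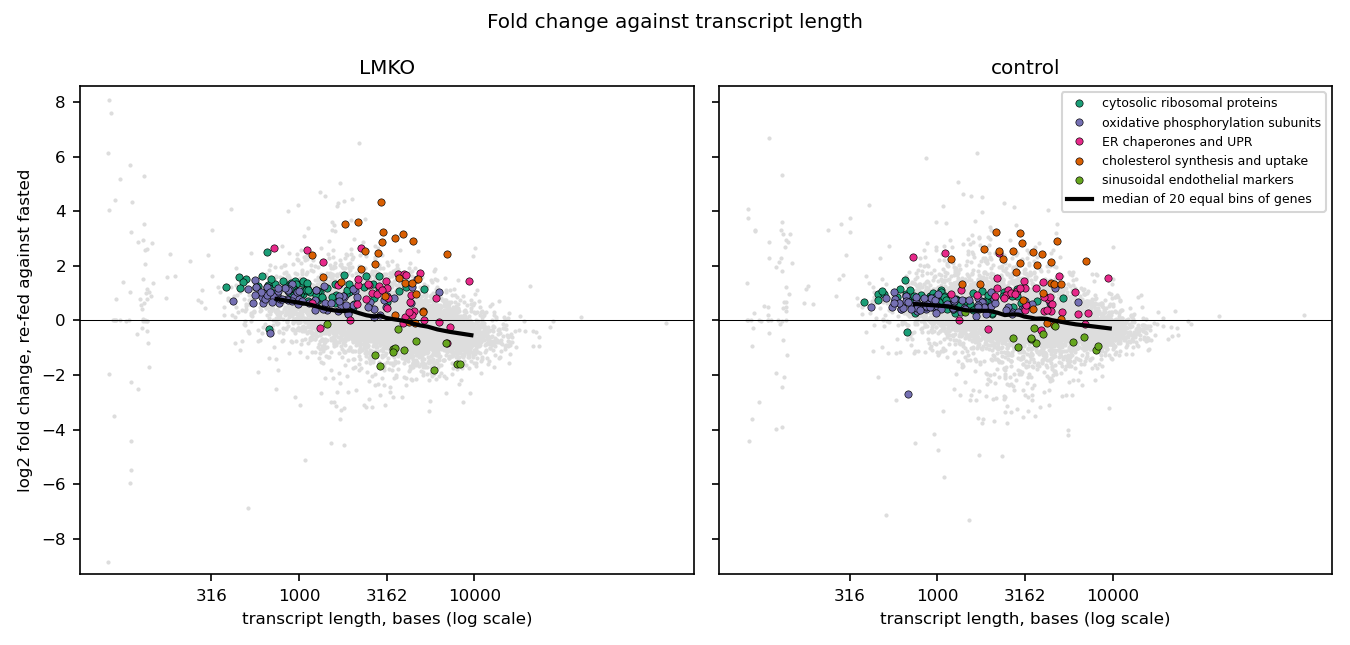
Log2 fold change of each gene from fasted to re-fed (vertical axis) against the length of its transcript in bases (horizontal axis, log scale), in LMKO mice (left) and control mice (right). Grey points are single genes, coloured points the genes of 5 lists, and the black line joins the medians of 20 bins of equal gene number. In both genotypes the line falls from above 0 at short transcripts to below 0 at long ones.

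Changes were tested with limma on log2(FPKM + 1), with p-values adjusted by the method of Benjamini and Hochberg over the 10499 genes and called at an adjusted p under 0.05. Fold changes on this scale understate the change of genes with low values. Re-feeding raised 2532 genes (24.1% of those tested) and lowered 1796 (17.1%) in the LMKO mice, 4328 in all (41.2%). Values of both re-fed libraries lay above or below both fasted libraries, without overlap, for 7976 genes (76.0%), higher for 4418 (42.1%) and lower for 3558 (33.9%). Of the called genes, 749 rose and 437 fell by at least 1 on the log2 scale (7.13% and 4.16%), 99 and 60 by at least 2 (0.943% and 0.571%), and 27 and 17 by at least 3 (0.257% and 0.162%). The median fold change over all genes was 0.06 on the log2 scale. Genes at 1 FPKM or more in both fasted libraries and in neither re-fed library numbered 310, and 204 showed the opposite pattern, groups that this choice alone sets apart. Of the 310, 209 were called lower, and of the 204, 151 were called higher. Such genes passed the limit only through their higher group, so their calls lend no separate support. Irs2, G6pdx, Lepr, Ces1g and Cyp2c55, given below, are among them. Leaving out 1 LMKO library at a time reduced the calls to between 2346 and 2804, and removing the length trend left 3247 calls, 2506 of them shared with the 4328. The shares of each list that rose or fell are set below against the 24.1% and 17.1% of all tested genes.

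**Figure D2:**
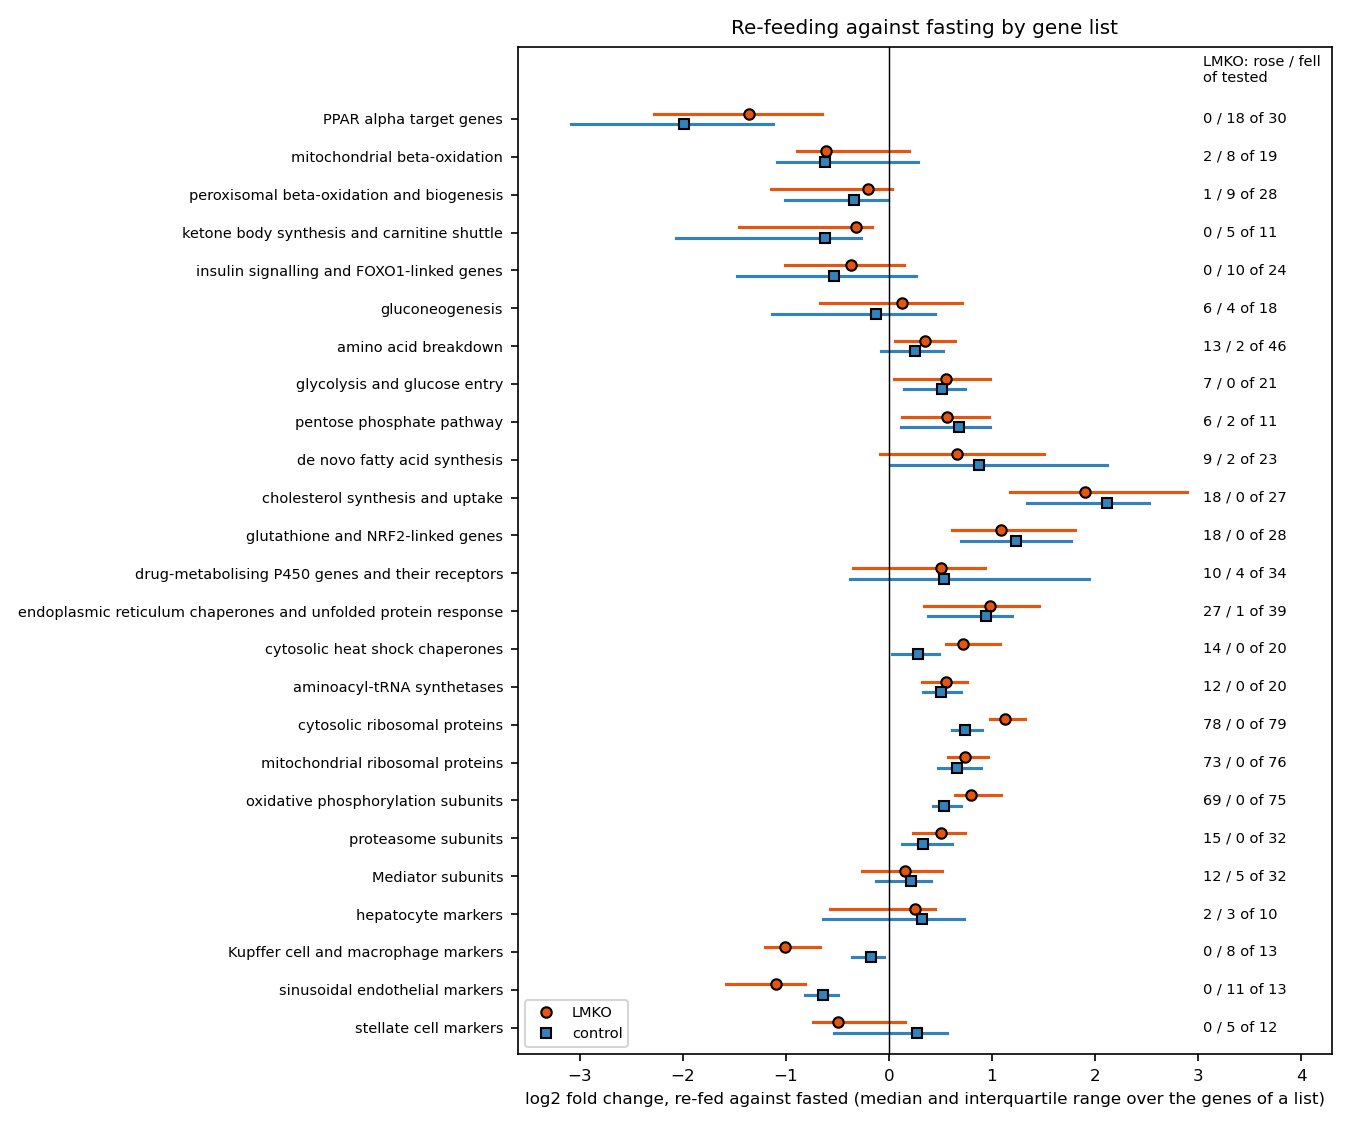
Median log2 fold change from fasted to re-fed (points) and interquartile range (lines) over the tested genes of 25 gene lists, in LMKO mice (orange circles) and control mice (blue squares). The column at the right gives how many genes of each list rose and fell in the LMKO mice of how many tested. PPAR alpha targets lie farthest to the left and cholesterol genes farthest to the right in both genotypes.

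Targets of PPAR alpha, the fatty acid-sensing nuclear receptor, had the lowest median of all lists in the LMKO livers. Of 30 tested, 18 fell (60.0%, against 17.1% of all tested genes) and 0 rose, with a median log2 fold change of -1.35. Vnn1, a pantetheinase, stood at 59.7 and 55.9 FPKM in the fasted and 4.99 and 6.06 FPKM in the re-fed libraries, 10.5-fold lower after food. The 2 groups did not overlap and animals of a group were close (log2 fold change -3.18 ± 0.31 SE, limma adjusted p = 0.00128). Cyp4a10 and Cyp4a14, which hydroxylate the end of fatty acid chains, were among the most abundant of these transcripts. Cyp4a10 was at 1293 and 1579.9 FPKM fasted and 193 and 301 FPKM re-fed (-2.56 ± 0.32, adjusted p = 0.00214), and Cyp4a14 at 2657 and 2583 FPKM and 485 and 651 FPKM (-2.22 ± 0.29, adjusted p = 0.00232). These genes are related neighbours on chromosome 4 and may share reads, as may Acot1 and Acot2 on chromosome 12. Angptl4, a secreted inhibitor of lipoprotein lipase, fell by 2.45 (SE 0.34) and Fgf21, the fasting hormone of the liver, fell by 2.81 (SE 0.57). Fgf21 differed between the fasted animals (21.6 and 6.4 FPKM) more than between the re-fed ones (0.554 and 1.18 FPKM). Plin2, which coats lipid droplets, was at 287 and 268 FPKM and 208 and 197 FPKM and did not pass (adjusted p = 0.356), nor did Fabp1, the fatty acid-binding protein of hepatocytes, at 9989 and 11163 FPKM and 14920.0 and 12232 FPKM (adjusted p = 0.271). Without the first LMKO re-fed library 10 of the 30 fell.

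Ketone body synthesis and the carnitine shuttle had 5 of 11 tested genes lower (45.5%, against 17.1% of all tested genes) and 0 higher. Cpt1a, the gate of fatty acid entry into mitochondria, was at 265 and 249.6 FPKM in the fasted and 60.4 and 92.6 FPKM in the re-fed libraries. Both fasted values were above both re-fed values, 3.36-fold by the means (-1.77 ± 0.29, adjusted p = 0.00502). In mitochondrial beta-oxidation 8 of 19 genes fell (42.1%) and 2 rose. Ehhadh, a bifunctional enzyme of peroxisomes that both this list and the peroxisomal list hold, fell by 2.13 (SE 0.45), and Etfdh, which passes electrons from acyl-CoA dehydrogenases to the respiratory chain, went from 244 and 224 FPKM to 112 and 118 FPKM (-1.02 ± 0.11, adjusted p = 0.00158). Etfb, a subunit of the electron carrier upstream of it, moved the other way, from 385 and 382 FPKM to 719.8 and 693 FPKM (0.88 ± 0.14), and has a short transcript. Its fold change was 0.18 with the length trend removed. Peroxisomal oxidation and biogenesis had 9 of 28 lower (32.1%) and 1 higher. Counts of falling genes in these 3 lists dropped to 3, 3 and 2 at the lowest when single LMKO libraries were left out.

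Gluconeogenic genes did not move as a block. Of 18 tested, 4 fell (22.2%, against 17.1% of all tested genes) and 6 rose (33.3%, against 24.1%), with a median of 0.13. With the length trend removed 6 fell and 3 rose (median -0.14), and under quantile normalization 7 fell and 2 rose (median -0.31). Pck1, the cytosolic phosphoenolpyruvate carboxykinase at chr2:172978574-172984754 (mm9), was at 824 and 855 FPKM in the fasted and 206 and 225 FPKM in the re-fed libraries. This 3.9-fold fall was large against the spread between animals (-1.96 ± 0.13, adjusted p = 0.000657). Ppargc1a, a coactivator of the fasting response, went from 3.14 and 3.4 FPKM to 1.26 and 1.5 FPKM (-0.84 ± 0.11, adjusted p = 0.00222), and Pcx, pyruvate carboxylase, from 149 and 182 FPKM to 96.1 and 87 FPKM (-0.84 ± 0.17). G6pc, the glucose-6-phosphatase that releases glucose from the liver, was at 227 and 220.2 FPKM fasted and 194 and 53.4 FPKM re-fed. The first re-fed animal stayed near the fasted level and the second was far below it, and the gene did not pass (adjusted p = 0.125). The genes that rose were Pgam1 and Eno1, which glycolysis uses in the other direction (0.92 ± 0.17 and 0.77 ± 0.19), the malate dehydrogenases Mdh1 and Mdh2 (0.76 ± 0.13 and 1.08 ± 0.16), and the aminotransferases Got2 and Gpt (0.45 ± 0.14 and 1.08 ± 0.16), of which Got2 stood at -0.12 under quantile normalization.

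Of 24 tested genes of insulin signalling and of FOXO1, which is active while insulin is low, 10 fell (41.7%, against 17.1% of all tested genes) and 0 rose (median -0.37). Igfbp1, a secreted binding protein of insulin-like growth factors at chr11:7097790-7102549 (mm9), was at 71.5 and 22.4 FPKM in the fasted and 1.25 and 0.471 FPKM in the re-fed libraries. Both fasted animals were far above both re-fed animals, and the fasted animals differed widely from each other (-4.5 ± 0.64, adjusted p = 0.00306). Irs2, the insulin receptor substrate that links the receptor to AKT, was at 5.71 and 4.49 FPKM and 0.469 and 0.510 FPKM (-2.03 ± 0.14, adjusted p = 0.000684). Insr, the insulin receptor, fell by 0.85 (SE 0.23), and Foxo1 itself fell by 0.71 (SE 0.2). Both have long transcripts, and with the length trend removed their fold changes were -0.34 and -0.23. Akt1 and Akt2, the kinases downstream, did not pass (-0.21 ± 0.13 and 0.13 ± 0.11). Without any 1 LMKO library the count that fell was 5 or 6.

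**Figure D3:**
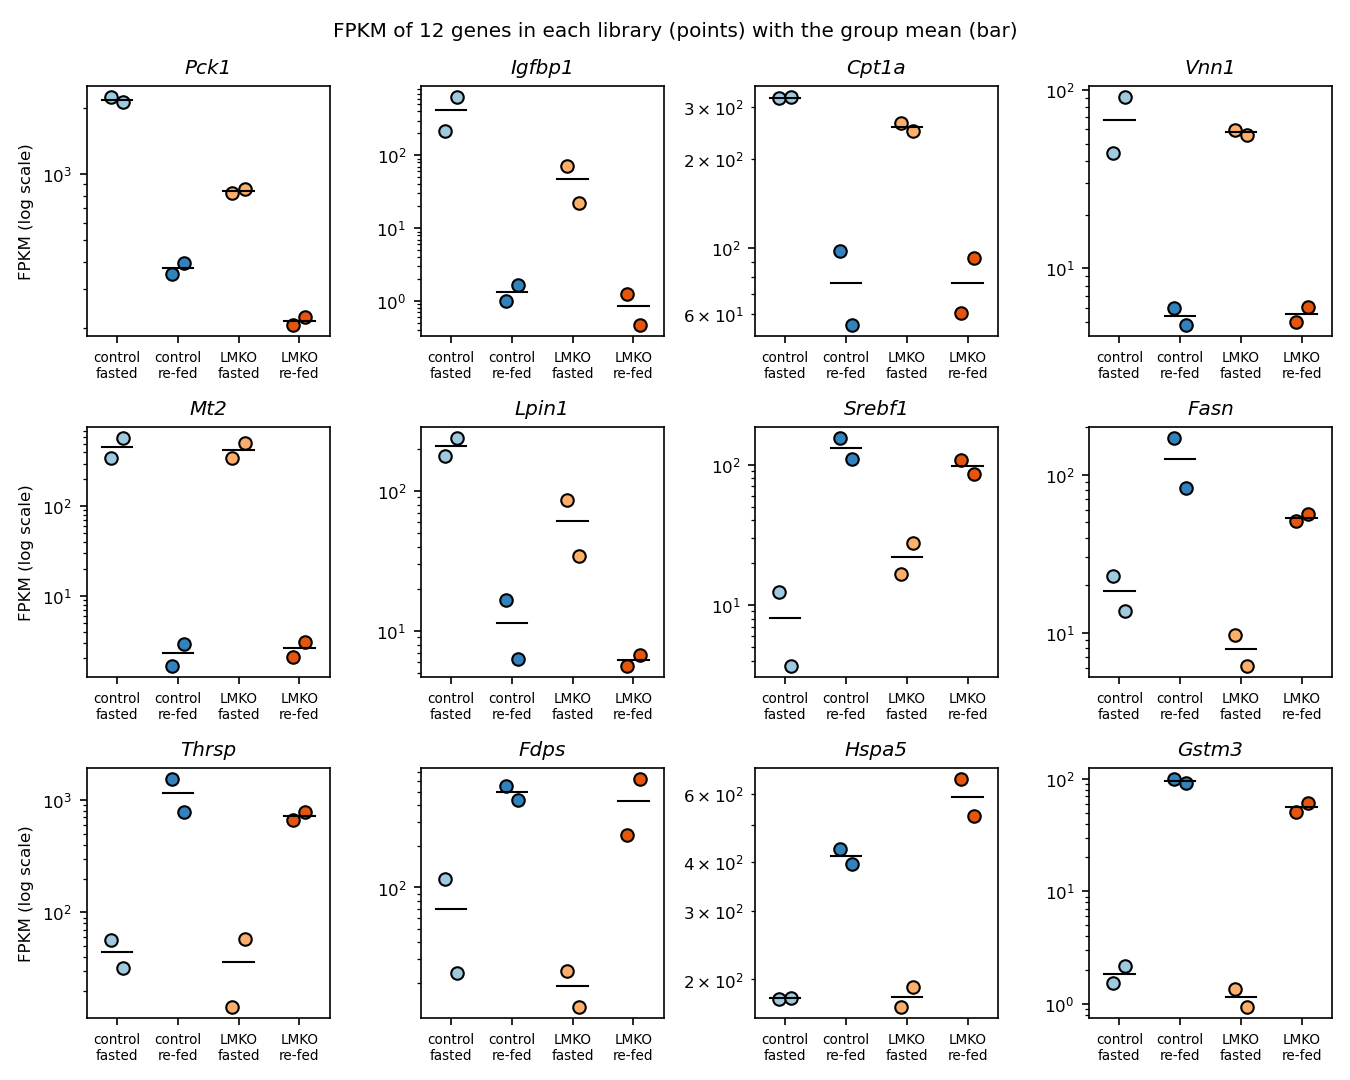
FPKM (log axis) of 12 genes in each of the 8 libraries (points) with the mean of each group (bars). Orange points are LMKO libraries and blue points control libraries, pale when fasted and dark when re-fed. In LMKO mice Pck1, Igfbp1, Cpt1a, Vnn1, Mt2 and Lpin1 are lower and Srebf1, Fasn, Thrsp, Fdps, Hspa5 and Gstm3 higher in both re-fed libraries than in both fasted ones.

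Genes of glucose use and fatty acid synthesis were among those that rose. Of 21 tested genes of glycolysis and glucose entry, 7 rose (33.3%, against 24.1% of all tested genes) and 0 fell, among them Khk, the first enzyme of fructose use (1.41 ± 0.34), Gapdh (1.3 ± 0.16) and Pgk1 (1.09 ± 0.15). With the length trend removed, and likewise under quantile normalization, 3 rose and 1 fell. Pklr, the liver pyruvate kinase, was at 46.2 and 17.4 FPKM and 73.8 and 58.8 FPKM and did not pass (adjusted p = 0.0873). In the pentose phosphate pathway, the source of NADPH for lipid synthesis, 6 of 11 rose (54.5%) and 2 fell. Pgd, its second dehydrogenase, went from 7.18 and 5.26 FPKM to 25.7 and 26.5 FPKM (1.92 ± 0.16, adjusted p = 0.000984), and Taldo1, a transaldolase, from 47.6 and 40.7 FPKM to 112 and 109.8 FPKM (1.31 ± 0.13). The first dehydrogenase, G6pdx, was low, at 1.48 and 1.74 FPKM fasted and 0.984 and 0.969 FPKM re-fed (-0.4 ± 0.11, adjusted p = 0.0298). It passed the limit on low values only through the fasted libraries, so its call is weak support for a fall.

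Of 23 tested genes of de novo fatty acid synthesis and its next steps, 9 rose (39.1%, against 24.1% of all tested genes) and 2 fell (median 0.66). Fasn, the fatty acid synthase, was at 9.61 and 6.14 FPKM in the fasted and 51.2 and 56.1 FPKM in the re-fed libraries (2.65 ± 0.38, adjusted p = 0.00322). Thrsp, the Spot 14 protein that follows carbohydrate feeding, was at 14.5 and 58.3 FPKM and 664 and 776 FPKM (4.57 ± 0.63, adjusted p = 0.00284). Every re-fed value of both genes was several times the highest fasted value. Acly and Acss2, which make cytosolic acetyl-CoA from citrate and acetate, rose by 1.82 ± 0.33 and 2.02 ± 0.26 on the log2 scale, and Elovl6, which lengthens the product, by 1.87 ± 0.41. Scd1, the stearoyl-CoA desaturase, was at 27.7 and 189 FPKM fasted and 353 and 37.5 FPKM re-fed. Its 2 animals differed within each state by more than the states did, and it did not pass (adjusted p = 0.697). The genes that fell were Elovl2, an elongase of polyunsaturated chains (-0.68 ± 0.16), and Lpin1, a phosphatidate phosphatase that is also a coactivator of PPAR alpha, with 86.8 and 34.6 FPKM fasted and 5.63 and 6.74 FPKM re-fed (-2.96 ± 0.52, adjusted p = 0.00576). Among 15 regulators of lipogenesis, 4 rose and 4 fell (26.7% each, against 24.1% and 17.1% of all tested genes), and fewer fell without any 1 LMKO library. Srebf1, the gene of SREBP-1, was at 16.6 and 27.5 FPKM and 108 and 85.8 FPKM (2.12 ± 0.49, adjusted p = 0.0144), and Nr1h3, the oxysterol receptor LXR alpha, rose by 0.92 ± 0.11. Mlxipl, the gene of ChREBP, did not pass, at 64.3 and 64 FPKM and 92.8 and 67.7 FPKM (adjusted p = 0.401), and Txnip, a glucose-responsive arrestin, fell from 76.5 and 59.1 FPKM to 11.4 and 13.8 FPKM (-2.33 ± 0.33). Gm6484, which RefSeq names Angptl8, an inhibitor of lipoprotein lipase made after meals, was at 32.1 and 13.7 FPKM and 359 and 353 FPKM (4.02 ± 0.34, adjusted p = 0.000984).

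Cholesterol synthesis and uptake had the highest median of the lists that hold more than 1 gene, 1.91: 18 of 27 tested genes rose (66.7%, against 24.1% of all tested genes) and 0 fell. Fdps, which makes farnesyl pyrophosphate, was at 24.5 and 13.4 FPKM in the fasted and 241 and 619 FPKM in the re-fed libraries, and Nsdhl, a sterol dehydrogenase on the X chromosome, at 7.0 and 3.39 FPKM and 43.1 and 120.2 FPKM. In both, and in Idi1 (18.6 and 12.5 FPKM fasted, 70.5 and 338 FPKM re-fed), the second re-fed animal was more than 2 times the first and the first fasted animal was above the second. The fold changes were 4.34 ± 0.75 for Fdps (adjusted p = 0.00573), 3.62 ± 0.74 for Nsdhl (adjusted p = 0.00966) and 3.26 ± 0.9 for Idi1 (adjusted p = 0.0269). Ebp, the sterol isomerase, was more even between animals, with 68.5 and 80.4 FPKM and 187 and 209.9 FPKM (1.41 ± 0.17, adjusted p = 0.00202). Srebf2, the gene of SREBP-2, was at 9.55 and 6.88 FPKM and 8.91 and 12.5 FPKM and did not pass (adjusted p = 0.32). Without the second fasted or the second re-fed LMKO library 7 of the 27 rose, and without the first fasted one 11.

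The promoters of the genes that lead this list are shown because their transcripts moved together and because SREBP factors are known to act beside NF-Y, which binds CCAAT. The sequences are the 250 bases before the first listed start, from RefSeq (GRCm38.p6), read 5′ to 3′ on the strand of the gene, with each CCAAT or its reverse complement ATTGG in capitals. They belong to the 2 genes with the largest rise among the called genes of the list with an entry in the promoter table, apart from any on a chromosome left out of this choice.
Nsdhl, chrX:72918271-72918520, plus strand: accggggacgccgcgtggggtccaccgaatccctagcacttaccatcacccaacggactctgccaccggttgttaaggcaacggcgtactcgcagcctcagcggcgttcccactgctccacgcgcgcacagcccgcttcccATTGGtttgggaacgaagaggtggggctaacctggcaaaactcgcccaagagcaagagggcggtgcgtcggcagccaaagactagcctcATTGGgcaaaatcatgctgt
Mvd, chr8:122443423-122443672, minus strand: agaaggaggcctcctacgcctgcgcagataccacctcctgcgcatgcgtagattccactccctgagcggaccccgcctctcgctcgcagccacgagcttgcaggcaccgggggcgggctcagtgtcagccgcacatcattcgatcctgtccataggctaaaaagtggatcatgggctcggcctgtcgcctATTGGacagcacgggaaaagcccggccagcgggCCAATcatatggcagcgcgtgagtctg
The matches lie 105 to 109 and 16 to 20 bases before the start of Nsdhl, and 56 to 60 and 23 to 27 bases before that of Mvd, the diphosphomevalonate decarboxylase, which rose from 1.65 and 1.16 FPKM to 17.8 and 39.1 FPKM (3.52 ± 0.68, adjusted p = 0.00793). CCAAT on either strand was found in 17 of the 19 promoters of the list that were in the table (89.5%), against 36.9% of the 8348 promoters of tested genes and 34.5% of all 27025. It was in 12 of the 14 promoters of list genes that rose (85.7%), so its share was no higher in those than in the whole list. The list of endoplasmic reticulum chaperones described next had it in 25 of 33 (75.8%), so it was not particular to the cholesterol genes. Letters of a sterol regulatory element, TCACNCCAC on either strand, were in 0 of the 19 and in 1.08% of the tested genes. A match is a description of the letters, and an absent match says only that these letters are not in this window.

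The endoplasmic reticulum (ER) is where secreted proteins are folded. Of 39 tested genes of ER chaperones and the unfolded protein response, 27 rose (69.2%, against 24.1% of all tested genes) and 1 fell (median 0.98). With the length trend removed 24 rose and 1 fell, which need not be the same gene. The call of the 1 fall depended on which LMKO libraries were in the fit, and with no limit on low values 0 fell. Hspa5, the chaperone BiP at chr2:34627610-34632049 (mm9), was at 170.0 and 191 FPKM in the fasted and 654 and 527 FPKM in the re-fed libraries. Both re-fed animals were above both fasted ones, 3.27-fold by the means (1.7 ± 0.15, adjusted p = 0.000984). Sec61b, a subunit of the channel through which new chains enter the ER, went from 35.9 and 40.9 FPKM to 268 and 223 FPKM (2.64 ± 0.16, adjusted p = 0.000565), and Manf, a secreted ER stress protein, from 13.8 and 14.2 FPKM to 110.1 and 77.9 FPKM (2.64 ± 0.19, adjusted p = 0.000699). Xbp1, a transcription factor of this response, rose by 0.59 ± 0.16. Of the stress sensors, Ern1, the gene of IRE1 alpha, fell by 0.83 (SE 0.26, adjusted p = 0.038, and -0.45 with the length trend removed), and Atf6 (-0.26 ± 0.17) and Eif2ak3, the gene of PERK (0.35 ± 0.19), did not pass.

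ER chaperone promoters are known for the ER stress element, a CCAAT and a CCACG held 9 bases apart, written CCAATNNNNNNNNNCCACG. This motif was added after the values of the list had been seen, and it contains the CCAAT letters counted above. In the 250 bases before the start it was found, on either strand, in 10 of the 33 promoters of the list that were in the table (30.3%), against 0.192% of the tested genes and 0.122% of all promoters. The promoter of Hspa5 is printed with its element in capitals, 47 to 65 bases before the start (RefSeq, GRCm38.p6, 5′ to 3′).
Hspa5, chr2:34771840-34772089, plus strand: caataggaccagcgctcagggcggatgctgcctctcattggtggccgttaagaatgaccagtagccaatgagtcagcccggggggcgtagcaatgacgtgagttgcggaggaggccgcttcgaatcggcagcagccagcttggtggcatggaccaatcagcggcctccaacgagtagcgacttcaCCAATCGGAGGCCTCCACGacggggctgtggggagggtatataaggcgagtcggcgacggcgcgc
The elements of 6 more genes of the list that rose follow, in the orientation of the motif, with the CCAAT and CCACG letters in capitals, to show what varies between them.
Pdia6: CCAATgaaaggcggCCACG
Calr: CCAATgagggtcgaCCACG
Syvn1: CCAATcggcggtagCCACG
Creld2: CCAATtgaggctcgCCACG
Hsp90b1, first: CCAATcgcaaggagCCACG
Hsp90b1, second: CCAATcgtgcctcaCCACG
Canx: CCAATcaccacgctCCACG
The genes are a disulphide isomerase (Pdia6), the lectin chaperones calreticulin and calnexin (Calr, Canx), a ubiquitin ligase of the ER (Syvn1), a secreted stress protein (Creld2) and the ER form of HSP90 (Hsp90b1). Creld2 rose most of these, by 2.15 ± 0.24, then Syvn1 by 1.68 ± 0.16, Pdia6 by 1.53 ± 0.14, Calr by 1.3 ± 0.12, Hsp90b1 by 0.82 ± 0.13 and Canx by 0.66 ± 0.14. Ero1lb, Derl3 and Dnajc3 also hold the element and did not pass the test (0.32, -0.26 and 0.02), so that the element was found in 7 of the 23 promoters of genes that rose (30.4%).

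Components of protein synthesis, respiration and protein breakdown followed. Of 79 tested cytosolic ribosomal protein genes 78 rose (98.7%, median 1.13), of 76 mitochondrial ones 73 (96.1%, 0.74), of 75 subunits of oxidative phosphorylation 69 (92.0%, 0.80) and of 32 proteasome subunits 15 (46.9%, 0.50), against 24.1% of all tested genes, with 0 lower in all 4 lists. Most of these transcripts are short. With the length trend removed 48, 34, 24 and 6 rose and 1, 0, 0 and 2 fell, with medians of 0.53, 0.36, 0.21 and 0.17. Without the second fasted or the second re-fed LMKO library, 42 and 39 mitochondrial ribosomal proteins and 9 and 8 proteasome subunits rose. Rps12, a protein of the small subunit, was at 373 and 361 FPKM in the fasted and 1186 and 1141 FPKM in the re-fed libraries (1.66 ± 0.12, adjusted p = 0.000699), and with the trend removed its fold change was 1.3. Atp5g1, the ring subunit of ATP synthase, went from 152 and 158 FPKM to 444 and 459 FPKM (1.53 ± 0.12, and 1.67 with the trend removed). The length used for Atp5g1 is that of its longest annotated transcript, which is long. Which transcript was expressed was not tested. Aminoacyl-tRNA synthetases, which charge tRNAs, had 12 of 20 higher (60.0%) and 0 lower, and 6 or 7 higher without the second fasted or either re-fed LMKO library, with Cars and Wars among the 12 (1.01 ± 0.11 and 0.93 ± 0.13). With the length trend removed 8 of the 20 synthetases were higher and 0 lower. In ribosome biogenesis 15 of 44 rose (34.1%) and 1 fell, with Nhp2, a protein of box H/ACA particles, going from 13.3 and 12.1 FPKM to 40.4 and 47.9 FPKM (1.72 ± 0.15).

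Of 20 tested cytosolic heat shock chaperones 14 rose (70.0%, against 24.1% of all tested genes) and 0 fell (median 0.72), and 5 rose with the length trend removed. Bag3, a co-chaperone of HSP70, was at 8.22 and 7.46 FPKM in the fasted and 28.3 and 27 FPKM in the re-fed libraries (1.7 ± 0.12, adjusted p = 0.000684). Fkbp4, a partner of HSP90 and steroid receptors, rose by 1.67 ± 0.21, and Hspa8, the constitutive HSP70, by 0.65 ± 0.19 from 880.0 and 844 FPKM to 1427 and 1292 FPKM. Without the first fasted or the first re-fed LMKO library 4 of the 20 rose, and 7 without the second fasted one. Among 18 genes of the ATF4 amino acid response 6 rose (33.3%, against 24.1% of all tested genes) and 3 fell (16.7%, near the 17.1%). Their median of 0.17 turned to -0.04 with the length trend removed. Ddit3, the gene of CHOP, rose from 5.81 and 4.17 FPKM to 18 and 18.3 FPKM (1.69 ± 0.18).

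Autophagy and lysosomal genes had 5 of 35 higher and 7 lower (the higher share, 14.3%, is below the 24.1% of all tested genes, and the lower share is near their 17.1%). With the length trend removed 3 were higher and 9 lower. Under quantile normalization 2 were higher and 14 lower, and 1 or 2 were higher without any 1 LMKO library. Ulk1, the kinase that starts autophagy, was at 23.7 and 21.7 FPKM in the fasted and 6.69 and 6.94 FPKM in the re-fed libraries. The animals of each state were nearly equal (-1.6 ± 0.1, adjusted p = 0.000657). Deptor, an inhibitor of mTOR, fell by 1.74 (SE 0.24) and Bnip3, a mitophagy receptor, fell by 1.35 (SE 0.19).

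Amino acid breakdown had 13 of 46 genes higher (28.3%, near the 24.1% of all tested genes) and 2 lower (median 0.36). Removal of the length trend gave 7 higher, and under quantile normalization 2 were higher and 7 lower (median -0.06). Without the first fasted or either re-fed LMKO library 6 were higher. Mat1a, which makes S-adenosylmethionine in hepatocytes, was the largest fall, from 2169.6 and 1770.5 FPKM to 396 and 531 FPKM (-2.09 ± 0.19, adjusted p = 0.0011). Cth, which makes cysteine, rose from 196 and 211 FPKM to 412 and 639.7 FPKM (1.33 ± 0.22). Tat, the tyrosine aminotransferase known as a target of glucocorticoids, was at 452 and 393 FPKM and 779.8 and 913 FPKM (1.0 ± 0.27, adjusted p = 0.0245), against 1094 and 1966 FPKM and 804 and 899 FPKM in the controls. Of 8 urea cycle genes 3 rose (37.5%, against 24.1% of all tested genes) and 0 fell (against 17.1%). Their median of 0.20 turned to -0.09 with the length trend removed and -0.27 under quantile normalization.

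Among called loci of at least 200 bases, the largest falls were those of the metallothioneins, small metal-binding proteins induced by zinc and glucocorticoids. Mt2, at chr8:96696518-96697467 (mm9), was at 344 and 511 FPKM in the fasted and 2.1 and 3.07 FPKM in the re-fed libraries, 165-fold lower by the means. Mt1, its neighbour at chr8:96702989-96704227, was at 635 and 802 FPKM and 17.3 and 22.6 FPKM. The animals within each state were within 2-fold of each other, and the gap between the states was far larger (-6.89 ± 0.32 and adjusted p = 0.000263 for Mt2, -5.1 ± 0.24 and adjusted p = 0.000263 for Mt1). Both are short transcripts and fell against the length trend (-7.82 and -5.71 with the trend removed). Lepr, the leptin receptor, went from 20.8 and 10.6 FPKM to 0.517 and 0.707 FPKM (-3.3 ± 0.66), Il6ra, the receptor of interleukin 6, from 21 and 20.7 FPKM to 1.34 and 2.29 FPKM (-2.98 ± 0.35, adjusted p = 0.00188), and Rgs16, which limits G protein signals, from 35 and 3.95 FPKM to 0.165 and 1.14 FPKM (-3.08 ± 0.84). The remaining genes of the 15 largest falls that the text has not named were Accn5, Cyp2a4, 1810053B23Rik, Abhd1, B930025P03Rik, E030018B13Rik and Cd1d2, with log2 fold changes of -3.62 to -3.0, besides Acot1 (-3.19 ± 0.4).

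Among 28 genes of glutathione metabolism and NRF2, the antioxidant factor, 18 rose (64.3%, against 24.1% of all tested genes) and 0 fell (median 1.09), and 14 rose with the length trend removed. Gstm3, a glutathione S-transferase at chr3:107766614-107772092 (mm9), was at 1.37 and 0.946 FPKM in the fasted and 50.8 and 60.4 FPKM in the re-fed libraries, 48-fold higher by the means. It had the smallest p in the LMKO comparison among the named loci of at least 200 bases (4.71 ± 0.17, adjusted p = 7.88e-05). Transferases of several classes rose together, among them Gstp1 from 355 and 346 FPKM to 1674 and 1231 FPKM (2.03 ± 0.25) and Gsta3 from 393 and 349.8 FPKM to 1566 and 1581 FPKM (2.08 ± 0.36). Genes of 1 class are close copies and may share reads. Txn1, thioredoxin, rose by 1.52 ± 0.13, whereas the NRF2 targets Nqo1 (0.4 ± 0.29), Hmox1 (-0.09 ± 0.22) and Gclm (-0.13 ± 0.15) did not pass.

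Drug-metabolising P450 genes moved both ways, with 10 of 34 higher (29.4%, near the 24.1% of all tested genes) and 4 lower (11.8%, against 17.1%). Removal of the length trend gave 6 higher and 5 lower, quantile normalization 6 and 10, and leaving out single LMKO libraries 6 to 8 and 1 to 3. The genes that rose include 6 of the Cyp2c cluster on chromosome 19, near-identical copies whose reads the counting may have split. Cyp2c29 was at 466 and 251 FPKM in the fasted and 1915 and 2497 FPKM in the re-fed libraries (2.67 ± 0.35, adjusted p = 0.00247). Cyp2c55, listed at 0 in 1 fasted library and at 0.195 FPKM in the other, reached 14.8 and 35.6 FPKM. Cyp1a2, the caffeine-metabolising enzyme of pericentral hepatocytes, rose from 181 and 207 FPKM to 895 and 597 FPKM (1.91 ± 0.24). Lower genes were Cyp2e1, which ketones and ethanol induce (8567 and 7652 FPKM to 4384 and 5336 FPKM, -0.74 ± 0.16), the electron donor Por (-1.44 ± 0.43), the receptor Nr1i3 (-1.26 ± 0.33) and Cyp2a4.

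Selenbp2 and Hsd3b5, which are known to be higher in male than in female mouse liver, were among the largest rises. Selenbp2, a selenium-binding protein, was at 1.75 and 2.89 FPKM in the fasted and 117 and 96.4 FPKM in the re-fed libraries (5.03 ± 0.57, adjusted p = 0.00171), the largest rise among called loci of at least 200 bases. Hsd3b5, a steroid dehydrogenase, was at 1.2 and 12.9 FPKM and 117 and 36.9 FPKM (3.6 ± 1.06, adjusted p = 0.0331), with a wide spread in both states. The list of growth hormone signalling and sex-biased genes had 4 of 23 higher (17.4%, against 24.1% of all tested genes) and 2 lower (8.70%, against 17.1%). With the length trend removed 2 were higher and 0 lower. Car3, a carbonic anhydrase that is abundant in fat and liver, went from 45.7 and 65.2 FPKM to 1132 and 1059 FPKM (4.3 ± 0.42, adjusted p = 0.00129), Ces1g, a carboxylesterase, from 0.779 and 0.835 FPKM to 22.4 and 23.1 FPKM (3.72 ± 0.4), and Slc22a7, an organic anion transporter, from 2.66 and 1.5 FPKM to 52.6 and 27 FPKM (3.68 ± 0.34). The other large rises were those of Cyp2c40, Cyp2c69, Cml5 and Fam25c, with log2 fold changes of 4.1 to 4.38.

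Among secreted proteins, 7 of 25 hepatokines and circulating factors fell (28.0%, against 17.1% of all tested genes) and 1 rose. After removal of the length trend 9 fell and 2 rose, and their median turned from 0.15 to -0.20. Without the first re-fed LMKO library 4 fell. Igfbp2 fell from 746 and 642 FPKM to 234 and 297 FPKM (-1.39 ± 0.24), and Lect2, a chemotactic hepatokine, rose from 64.6 and 51.8 FPKM to 209 and 280.1 FPKM (2.05 ± 0.35). Of 28 acute phase genes 5 fell (17.9%, near the 17.1% of all tested genes), the 2 metallothioneins and Serpina3n (-1.42 ± 0.19) included, and 2 rose. After removal of the length trend 0 rose, and without the second fasted LMKO library 4 rose and the median turned from -0.18 to 0.25. Apolipoproteins and lipoprotein assembly had 6 of 22 higher (27.3%) and 5 lower (22.7%), and 1 higher and 7 lower with the length trend removed. Apob, whose transcript is one of the longest in liver, went from 1025 and 1013 FPKM to 390.3 and 423 FPKM (-1.32 ± 0.25; -0.69 with the trend removed). Apoc3, which is short, went from 2426 and 2404 FPKM to 5318 and 4981 FPKM (1.09 ± 0.15; 0.29 with the trend removed).

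The subunits of Mediator moved both ways. Of 32 tested, Med23 included, 12 rose (37.5%, against 24.1% of all tested genes) and 5 fell (15.6%, near the 17.1%). With the length trend removed 7 rose and 2 fell, and the median turned from 0.16 to -0.13. Without the second fasted LMKO library 4 rose, and without either re-fed one 6. The subunits that fell were Med12, Med13, Med13l and Cdk19, which belong to the kinase module, and Med1, which nuclear receptors contact. Med1 was at 10.8 and 12.2 FPKM in the fasted and 6.75 and 6.98 FPKM in the re-fed libraries (-0.67 ± 0.13, adjusted p = 0.00889; -0.22 with the trend removed). Med21, a small subunit of the middle module, rose from 11.7 and 11.1 FPKM to 21.3 and 29.8 FPKM (1.08 ± 0.18; 0.7 with the trend removed).

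Markers of sinusoidal endothelium, Kupffer cells and, in part, stellate cells fell in the LMKO re-fed livers. Of 10 hepatocyte markers 2 rose (a share near the 24.1% of all tested genes) and 3 fell (a share above their 17.1%). With the length trend removed 1 rose and 3 fell, and under quantile normalization 1 rose and 4 fell. With the replicate number as a block in the fit 2 rose and 1 fell, so the hepatocyte counts are not settled. In bulk RNA, fewer cells of a type and less RNA per cell cannot be told apart. Of 13 markers of sinusoidal endothelium 11 fell (84.6%, against 17.1% of all tested genes) and 0 rose (median -1.10). Their summed FPKM was 189.7 and 165.6 in the fasted and 105.8 and 78.2 in the re-fed libraries, without overlap. Kdr, the receptor of vascular endothelial growth factor, was at 15.6 and 11.7 FPKM and 3.74 and 2.62 FPKM (-1.81 ± 0.19, adjusted p = 0.00142), and Stab2, a scavenger receptor, at 13.4 and 9.97 FPKM and 3.61 and 2.84 FPKM (-1.58 ± 0.16, adjusted p = 0.00146). Clec4g, a lectin of the same cells, was at 29.9 and 34.1 FPKM and 33.3 and 25.6 FPKM and did not pass (adjusted p = 0.697).

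Of 13 Kupffer cell and macrophage markers 8 fell (61.5%) and 0 rose (median -1.01), and 3 fell without the second fasted or the first re-fed LMKO library. Summed FPKM was 179.8 and 219.7 in the fasted and 83.7 and 117.4 in the re-fed libraries. Cd163, a haemoglobin scavenger receptor, was at 5.22 and 5.32 FPKM and 0.840 and 1.04 FPKM (-1.7 ± 0.23, adjusted p = 0.00278), and Clec4f, a lectin typical of Kupffer cells, at 28.8 and 35.8 FPKM and 11.2 and 16.1 FPKM (-1.2 ± 0.28, adjusted p = 0.0151). The 3 C1q genes did not pass (-0.4, -0.67 and -0.53). Stellate cell markers had 5 of 12 lower (41.7%) and 0 higher, and 3 lower without the second fasted or the first re-fed LMKO library, with Rgs5, a pericyte gene, from 14.6 and 16.8 FPKM to 2.01 and 3.86 FPKM (-2.12 ± 0.26). With the length trend removed 10 sinusoidal, 11 macrophage and 5 stellate markers fell, and 1 stellate marker rose. The control livers had 7 of 13, 2 of 13 and 3 of 12 of these markers lower, against 10.8% of all tested genes. In the controls 0 sinusoidal, 0 macrophage and 2 stellate markers rose, and the stellate median was 0.27. None of the differences between the genotypes in these lists passed the test over all genes. Markers of 3 other populations did not fall as a list. Of 2 cholangiocyte markers Spp1, osteopontin, rose (1.45 ± 0.26), with summed FPKM of 15.5 and 13.2 fasted and 29.1 and 31.6 re-fed. The 6 erythroid loci, globins among them, did not pass, and their summed FPKM was 60.0 and 51.3 fasted and 143.1 and 108.4 re-fed, with a fitted difference above 0 at each locus. The 2 neutrophil genes did not pass, with sums of 4.75 and 5.11 and of 5.21 and 9.83. None of the 8 listed T and NK cell genes and none of the 5 listed B cell genes reached the level needed to be tested, with summed FPKM between 1.22 and 2.08 in the 4 LMKO libraries. The part that cell composition has in the other lists was not tested.

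**Figure D4:**
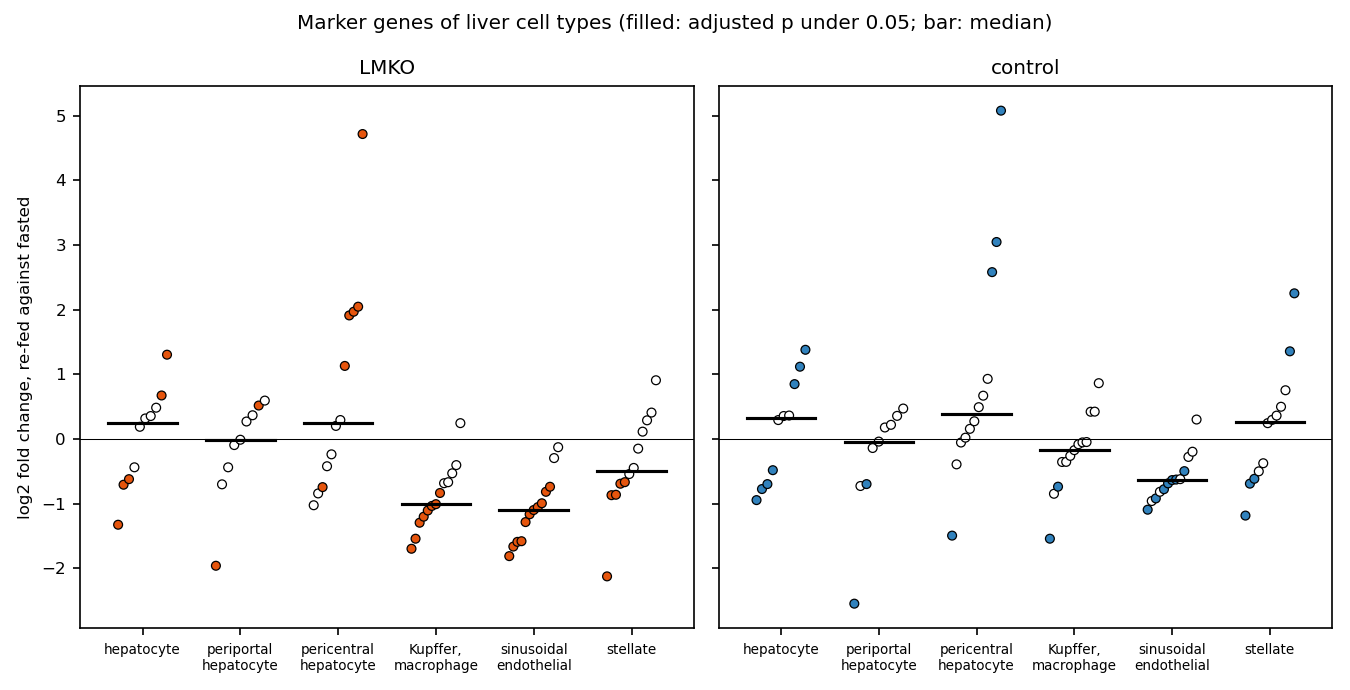
Log2 fold change from fasted to re-fed (vertical axis) of the tested marker genes of 6 liver cell populations in LMKO (left) and control (right) mice. Each point is a gene, filled where its adjusted p is under 0.05, and bars are medians. Sinusoidal and Kupffer cell markers have medians of -1.10 and -1.01 in LMKO mice and of -0.63 and -0.17 in control mice.

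The remaining lists gave the following counts, beside 24.1% of all tested genes higher and 17.1% lower. Pericentral hepatocyte markers had 5 of 12 higher (41.7%) and 1 lower (8.33%), and periportal ones 1 of 9 higher and 1 lower (11.1% each). The 1 tested pancreatic acinar gene rose in LMKO (2.27) and in control mice (2.49). Summed FPKM of the acinar list was 6.57 and 10.4 in the LMKO fasted and 48.95 and 35.5 in the LMKO re-fed libraries. The 1 tested adipocyte gene did not pass (0.38). Of 19 clock genes 1 rose and 4 fell (21.1%, against 17.1% of all tested genes), and of 15 immediate-early genes 2 rose and 4 fell (26.7%), which became 1 or 2 falls without the second fasted or either re-fed LMKO library. Of 21 genes of bile acid synthesis and transport 1 rose and 3 fell (14.3%), and with the length trend removed 7 fell and under quantile normalization 8, with 0 higher in both, while 1 fell without the first fasted and 0 without the first re-fed LMKO library. Of 19 genes of glycogen metabolism 4 rose (21.1%) and 2 fell, and 0 and 0 without the second fasted LMKO library. Interferon-stimulated genes had 3 of 15 higher, 0 with the length trend removed, and DNA replication and cell cycle 3 of 17 higher and 1 lower, with 18 more below the level needed to be tested. Ccnd1, cyclin D1, rose from 1.23 and 1.59 FPKM to 3.66 and 4.9 FPKM (1.13 ± 0.19). Cyp7a1, the rate-limiting enzyme of bile acid synthesis, was at 41.2 and 53.8 FPKM and 17 and 70.9 FPKM and did not pass (adjusted p = 0.835). Ppp1r3b, which targets a phosphatase to glycogen, rose by 1.62 ± 0.33, and Gys2, the liver glycogen synthase, fell by 1.33 (SE 0.34).

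Some genes of the fed and fasted programmes differed so much between the 2 mice of a state that no change could be called. Of the loci of 200 bases or more whose mean in a group reached 5 FPKM, the 2 animals differed by at least 1 on the log2 scale for 134 of 6501 in the LMKO fasted group (2.06%) and for 114 of 6395 in the LMKO re-fed group (1.78%). Besides Scd1 and G6pc they include Cish, a target of growth hormone (0.593 and 27.1 FPKM fasted, 24.7 and 0.979 FPKM re-fed), Dbp, an output gene of the clock (23.1 and 40.2 FPKM and 6.6 and 53.2 FPKM), Onecut1, a hepatocyte transcription factor (3.89 and 33.3 FPKM and 26.5 and 6.16 FPKM), and Serpina1e, one of several close copies of alpha-1-antitrypsin (3784 and 7152 FPKM and 3174 and 133 FPKM). Cyp2c39 was far lower in both re-fed animals, at 60.0 and 2.23 FPKM against 365 and 296 FPKM, yet did not pass (adjusted p = 0.0791). Those 5 genes were chosen after their values were seen.

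The same genes were set beside the response of the control mice. The comparisons share no library, but 1 model over all 8 libraries gave both their estimate of the spread, and with only the 4 control libraries in the fit the control calls below become 2049. Re-feeding raised 2472 genes (23.5%) and lowered 1136 (10.8%) in the controls, 3608 in all (34.4%). Scaling moved the balance of these calls, to 1788 higher and 1717 lower with median-ratio factors and 1644 and 1677 under quantile normalization, against 2313 and 2172 and 2051 and 2083 in the LMKO mice. Calls in the same direction numbered 1874 higher (74.0% of the LMKO and 75.8% of the control rises) and 862 lower (48.0% and 75.9%). Of the 4328 LMKO calls, 4180 had the same sign in the controls. Across genes, which are not independent replicates, the log2 fold changes had a Pearson r of 0.763. The test of the difference between the genotypes' responses called 3 of 10499 genes (0.0286%), 2 higher in LMKO mice (0.019%) and 1 lower (0.00952%), with 1002 at an unadjusted p under 0.05. All 3 are loci under 200 bases that are listed at 0 in 6 of the 8 libraries. Without single libraries the count was 2 to 13, with 13 when the first control fasted library was left out, and the control calls were as few as 1612 and 1795 without the second control fasted or re-fed library.

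**Figure D5:**
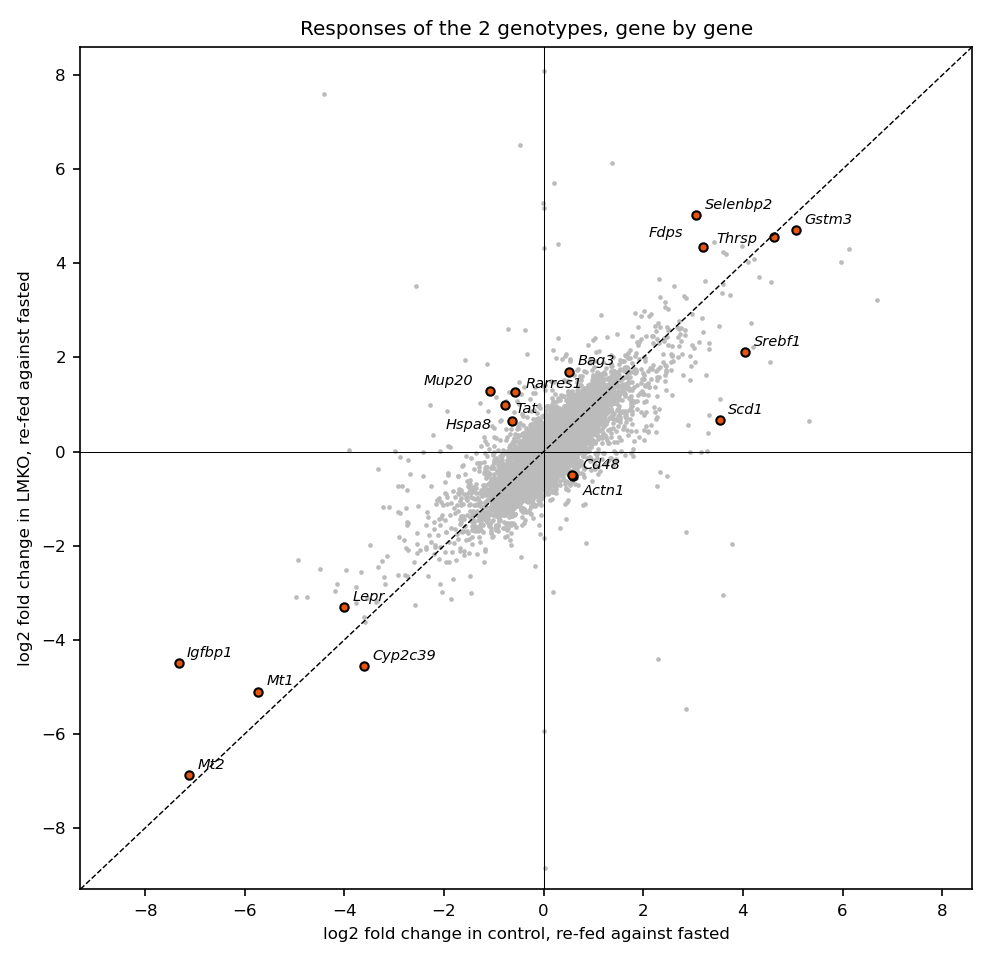
Log2 fold change from fasted to re-fed in LMKO mice (vertical axis) against that in control mice (horizontal axis). Each grey point is 1 of the 10499 genes, orange points are genes named in the text, and the dashed line marks equal change. Most genes lie along the line, and Mup20, Rarres1, Hspa8, Actn1 and Cd48 lie on opposite sides of 0 in the 2 genotypes.

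No other gene passed the test of the difference, and the following differences are values that did not pass it. Called in opposite directions were 4 genes higher in LMKO and lower in control, Gm17821, Hspa8, Mup20 and Rarres1, and 2 genes the other way, Actn1 and Cd48. Rarres1, a membrane protein known from retinoid-treated cells, was at 11.6 and 10.9 FPKM and 25.2 and 32 FPKM in the LMKO mice and at 55 and 63.4 FPKM and 43.1 and 36.3 FPKM in the controls (difference 1.84 ± 0.23, adjusted p = 0.188). Mup20, a major urinary protein with close copies, was at 1101 and 534 FPKM and 1819.9 and 1927 FPKM in the LMKO mice and at 2741 and 3400.0 FPKM and 1641 and 1278 FPKM in the controls (difference 2.36 ± 0.47, adjusted p = 0.452). In both genes the LMKO fasted animals were the lowest of the 4 groups. Asl, the argininosuccinate lyase of the urea cycle, was at 408 and 398 FPKM and 364 and 388 FPKM in LMKO mice and at 833 and 924 FPKM and 406 and 387 FPKM in controls, so that only the control fasted libraries stood apart (difference 1.04 ± 0.17, adjusted p = 0.452).

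The other genes with the smallest p for a higher response in LMKO mice were 1300015D01Rik, which fell in both (-1.28 against -2.93, adjusted p = 0.148 for the difference), Bag3, which rose in both (1.7 against 0.52, adjusted p = 0.257), and Mup7, another urinary protein gene, at 5.13 and 5.6 and 27.4 and 50.5 FPKM in LMKO mice but 1878 and 2642 and 1600.1 and 1842 FPKM in controls (adjusted p = 0.257). Among those with the smallest p for a lower response were Stmn1, a microtubule regulator, Adi1, of the methionine salvage pathway, and Rnf186, a ubiquitin ligase (adjusted p = 0.452 for each of these 3). These genes did not change in the LMKO mice beyond the test (log2 fold changes -0.28 to 0.17) and rose in the controls (1.29 to 1.44).

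Several genes of feeding named above had values of the same sign in both genotypes. Pck1 changed by -1.96 ± 0.13 in LMKO mice and by -2.54 ± 0.13 in controls, whose fasted libraries stood at 2244 and 2128 FPKM (difference 0.59 ± 0.18, adjusted p = 0.489). Igfbp1 changed by -4.5 and -7.33, Srebf1 by 2.12 and 4.05, and Car3 by 4.3 and 6.13 (adjusted p of each difference at or above 0.491). Fasn and Thrsp changed nearly equally in both, by 2.65 and 2.68 and by 4.57 and 4.63. With a median SE of 0.215 for a difference and 2 mice per group, these values do not settle whether the genotypes respond alike.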

How the data were processed

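Polyadenylated liver RNA of 8 mice was sequenced after a TruSeq library preparation, per the labels' protocols. The authors deposited FPKM values per gene on mm9; TopHat 1.4.1, SAMtools 1.4.1, Cufflinks 2.0.2 and Cuffdiff 2.0.2 are named in the submitters' processing notes. FPKM corrects for transcript length and for mapped fragments, and raw counts were not used here. Deposited starts count from 0 and are printed 1 higher.

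Loci with at least 1 FPKM in at least 2 of the 4 LMKO libraries were tested with limma 3.58.1 (R 4.3.3) on log2(FPKM + 1), with a pseudocount of 1. All 8 libraries entered 1 model of 4 group means, with an intensity trend in the empirical Bayes step (4 residual and 2.89 prior degrees of freedom) and Benjamini-Hochberg adjustment. The contrasts were re-fed against fasted in LMKO, the same in control, and their difference. The procedure was tested on simulated data. Python 3.11.15 with pandas 2.3.3, numpy 2.4.6 and matplotlib 3.10.9 made tables and figures. Transcript lengths and promoters came from GENCODE M21 and RefSeq on GRCm38 by gene name, and no coordinates were converted. The length of a gene was that of its longest listed transcript, which need not be the one expressed in liver.

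Groups followed the labels. The comparison, gene lists and motifs come from general knowledge of the liver and were chosen with earlier results of these data known. Named genes were Med23, the 15 largest rises and falls (called, at least 5 FPKM in the higher group, no overlap, a single locus of at least 200 bases), up to 4 members per list with the smallest p, and the 5 smallest p of the difference in each direction. Further genes were named for their known roles after their values had been seen, and a few genes that these rules name are not reported here. Alternatives changed the pseudocount, the filter, the scaling, the variance model, the libraries in the fit and the length trend, which was removed as a loess curve of each library's deviations on log2 transcript length.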

Additional observations from a re-analysis of the deposited data

Results flagged for a closer look

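The response to re-feeding differed between LMKO and control mice at 3 loci by limma's test of the difference with Benjamini-Hochberg adjustment, and all are annotated small RNAs under 200 bases. Mir5123 was listed at 0 and 0 FPKM in the LMKO fasted and stood at 277 and 266 FPKM in the LMKO re-fed libraries (adjusted p = 1.54e-06), Mir215 was listed at 0 and 0 FPKM and stood at 19.6 and 18.8 FPKM (adjusted p = 4.89e-05), and both were listed at 0 in all 4 control libraries. Snord23, a small nucleolar RNA, was at 43.1 and 84.8 FPKM in the LMKO fasted libraries and was listed at 0 in the other 6 (adjusted p = 0.0051). The limit on low values admits such a locus only if both animals of the high group show signal. Whether these values are expression of the small RNAs themselves was not tested. Without loci under 200 bases, 0 genes were called for the difference.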

How the results depend on the processing

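For re-feeding against fasting in LMKO, 4328 genes were called, and leaving out single LMKO libraries gave 2346 to 2804 and single control libraries up to 4315, each time with 1 library left in a group, whose spread is then assumed to equal that of the other groups. For re-feeding against fasting in control, the 3608 calls became 2049 with only the 4 control libraries in the fit, 2163 with the replicate block, and 1612 to 3159 without single libraries (1612 and 1795 without control fasted replicate 2 and control re-fed replicate 2). The difference between the re-feeding responses of LMKO and control had 3 calls, which became 1 with the length trend removed, 7 with no filter on low values, 0 without loci under 200 bases, and 2 to 13 without single libraries (13 without control fasted replicate 1, 7 and 6 without control re-fed replicate 1 and 2, 5 without LMKO fasted replicate 2). The cause was not tested. Med23 in every library: the change of -0.29 (adjusted p = 0.0884) was -0.33 with median-ratio scaling and then passed (adjusted p = 0.0396), and at a minimum of 5 FPKM it was not tested.

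Of the single genes named, 4 that were called in the main fit changed sign. Changes of sign where neither fit called the gene were not counted. Ass1 stood at 0 (adjusted p = 1), Asgr1 at -0.018 (adjusted p = 0.917) and Got2 at -0.12 (adjusted p = 0.509) under quantile normalization, and Gm17821 at 0 (adjusted p = 0.997) with the length trend removed. Over all genes named and all alternatives, 5372 values kept their side of the threshold, any change of sign between uncalled values included. Another 307 lost the call and 48 gained it. For the differences of single genes 206 kept their side of the threshold on the same terms and 1 gained the call. Of the counts of genes that rose or fell by list and were above 0 in the main fit, 1181 stayed within 1.5 times and 268 did not. Leaving out the 4 LMKO libraries in turn gave 27, 34, 37 and 38 of these 268, removing the length trend 29 and quantile normalization 27. Counts of 0 in the main fit were left out of this tally, though some moved. Falls of proteasome subunits, for example, became 2 with the length trend removed.

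Replicate numbers in the labels name samples and nothing says that equal numbers share a litter or a day. The deviations of same-numbered samples had correlations of -0.071 in LMKO and -0.157 in control mice. The replicate block gave 1915 rises and 1311 falls in the LMKO comparison. Depth is known only as a ratio between libraries, so genes near 1 FPKM carry an unknown counting error. With 2 mice per group and 4 residual degrees of freedom, a gene that did not pass is not shown to be unchanged.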
